A study of Mus musculus with 70 samples.

Results

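The genes described here encode the subunits of the 5 oxidative phosphorylation complexes that are carried by nuclear chromosomes. They were taken by symbol from a table of 43346 mouse genes. The rule took symbols beginning with Ndufa, Ndufb, Ndufc, Ndufs, Ndufv, Uqcr, Cox4 to Cox8 or Atp5, and Sdha to Sdhd, without the Ndufaf assembly factors and pseudogenes, at a mean of at least 1 RPKM (reads per kilobase of transcript, scaled to the library's size) over 70 libraries. Of 85 protein-coding genes with such a symbol, 78 reached that level. They comprise 36 genes of complex I, 4 of complex II, 8 of complex III, 13 of complex IV and 15 of complex V. The remaining 2, Atp5s and Atp5sl, carry an ATP synthase symbol but are not subunits of its core structure. Ndufa4, named after complex I, was counted with complex IV, where the protein is now placed.

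The libraries came from mouse forebrain in a study of microglia, the resident macrophages of the brain, under systemic inflammation, amyloid, tau and ageing. All mice were RiboTag animals, double heterozygous for a tamoxifen-inducible Cre recombinase driven by the Cx3cr1 promoter (Cx3cr1-CreERT2-IRES-eYFP) and for a conditional HA tag on the ribosomal protein RPL22 (Rpl22-HA), and all had tamoxifen at 100 µg/g on 3 days. In a RiboTag library, ribosomes carrying the tag were pulled from a whole forebrain lysate with an anti-HA antibody, so the RNA is what was bound to tagged ribosomes of cells that had expressed Cx3cr1. The design text gives 3 to 5 animals per condition and does not say whether further technical repeats exist.

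The first groups were RiboTag mice 24 h after intraperitoneal lipopolysaccharide (LPS; 3 libraries) and their saline controls (4). With them came CD11b+ CD45lo/int cells sorted after collagenase digestion from LPS-treated (3) and saline-treated (3) RiboTag mice, and the unselected forebrain lysate of saline-treated RiboTag mice (bulk input, 4). A further set held RiboTag mice 24 h after intraperitoneal Poly(I:C), a mimic of viral double-stranded RNA (3), and their saline controls (3). RiboTag mice carrying APP/PS1 transgenes, an amyloid model, were taken at 9 to 10 months (5) with RiboTag controls (5). RiboTag mice injected with rAAV1-TauP301L, a viral vector for a mutant tau, were also taken at 9 to 10 months (5), with rAAV1-GFP controls (5). Ageing was followed at 3, 12 and 24 months in females (5, 5 and 4) and males (5, 4 and 4). By marker genes, 12 of 12 microglial markers were higher in RiboTag saline than in input, but the pulldown was not pure. The summed level of 12 neuronal markers was 211 to 263 RPKM in RiboTag saline and 521 to 612 RPKM in input. Sorted cells held 12572 to 49167 RPKM of 12 neutrophil and monocyte markers after LPS and 5554 to 18477 RPKM after saline, against 14.8 to 17.8 RPKM in RiboTag LPS and 5.29 to 23.9 RPKM in RiboTag saline. Reads assigned to genes numbered 20.5 M to 47.2 M per library, of which the 78 genes took 0.188% to 0.497%.

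Oxidative phosphorylation is the process by which mitochondria turn the electrons of nutrients into ATP. Complexes I and II feed electrons to ubiquinone, complex III passes them to cytochrome c, complex IV hands them to oxygen, and complex V, the ATP synthase, uses the proton gradient that complexes I, III and IV build. All complexes but the second also hold subunits encoded by mitochondrial DNA, and these are not described here because the 37 genes of the mitochondrial chromosome stand at 0 in every library of the table. Resting microglia use this pathway for surveillance, and macrophages exposed to LPS are known from culture work to shift part of their energy supply to glycolysis. Promoters of these genes are known as targets of NRF1, of ETS family factors such as GABP (also called NRF2) and of YY1.

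Promoter windows of 250 bases before the annotated start were at hand for 66 of the 78 genes, from RefSeq on GRCm38.p6. Both strands were searched for the letters CCGGAAG (ETS), GCGCA followed by its own reverse complement (NRF1), AAGATGGCG (YY1) and CCAAT, which NF-Y binds. An ETS match directly before a YY1 match can share its last 3 letters with it. The ETS letters were found in 12 of the 66 genes (18.2%), against 7.83% of 27025 genes with such windows. Those 27025 were not filtered by gene type or level, whereas the 66 are protein-coding and reached a mean of 1 RPKM. The shares are therefore not from like sets of genes. NRF1 letters were in 4 genes (6.06%, against 0.877%) and YY1 letters in 2 (3.03%, against 0.71%), while CCAAT, short enough to occur often, was in 28 (42.4%, against 37.5%). The windows of 4 genes are shown, picked with their results known, and they do not stand for the 66. Cox6b1 was called higher in 5 of 9 comparisons of a treatment, model or age, and Uqcr11 had the largest log2 difference after LPS in the pulldown. Cox6a1 was called higher in 2 of the 9, LPS in sorted cells among them, and Atp5b is the most abundant of the 78 transcripts. Sdhb, called higher in 4 of the 9, is not shown, and its window had 1 CCAAT match and no ETS match. Capitals mark the matched letters on either strand, and each window is written 5′ to 3′ on the gene's own strand.
Cox6b1, chr7:30626115-30626364, minus strand, 1 ETS and 2 CCAAT matches: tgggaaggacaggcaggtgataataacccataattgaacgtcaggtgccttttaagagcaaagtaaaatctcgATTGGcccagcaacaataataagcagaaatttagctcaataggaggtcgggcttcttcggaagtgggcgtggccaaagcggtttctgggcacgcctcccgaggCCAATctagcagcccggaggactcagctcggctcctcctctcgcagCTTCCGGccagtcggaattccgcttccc
Uqcr11, chr10:80406822-80407071, minus strand, 1 ETS match: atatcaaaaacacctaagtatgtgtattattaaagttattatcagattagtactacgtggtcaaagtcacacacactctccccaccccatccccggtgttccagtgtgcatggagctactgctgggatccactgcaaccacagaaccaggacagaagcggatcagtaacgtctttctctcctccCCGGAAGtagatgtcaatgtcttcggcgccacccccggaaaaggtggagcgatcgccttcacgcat
Cox6a1, chr5:115348959-115349208, minus strand, 1 ETS, 1 NRF1 and 1 CCAAT match: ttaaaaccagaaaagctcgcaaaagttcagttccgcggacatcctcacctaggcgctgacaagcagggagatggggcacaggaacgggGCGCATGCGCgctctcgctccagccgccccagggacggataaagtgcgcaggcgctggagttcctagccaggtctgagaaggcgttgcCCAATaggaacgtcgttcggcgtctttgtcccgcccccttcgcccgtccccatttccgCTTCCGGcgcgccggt
Atp5b, chr10:128083057-128083306, plus strand, 5 CCAAT matches: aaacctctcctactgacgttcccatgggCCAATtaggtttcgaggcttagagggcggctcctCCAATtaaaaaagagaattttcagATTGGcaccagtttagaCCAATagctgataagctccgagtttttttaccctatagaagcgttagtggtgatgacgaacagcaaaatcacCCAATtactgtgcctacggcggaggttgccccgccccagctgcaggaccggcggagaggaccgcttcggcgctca
A match describes letters in a window and not a bound site.

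Levels in RPKM spanned a wide range among the 78 genes. Over all libraries the highest were Atp5b, the catalytic beta subunit of ATP synthase (43.3 RPKM), Cox8a, a small subunit of complex IV (40.1), Cox6a1, the widely expressed form of complex IV subunit 6A (27.8), Atp5a1, the alpha subunit of ATP synthase (23.7), and Sdha, the flavoprotein of complex II (21.9). Complex IV genes averaged 13.6 RPKM, complex V genes 10.4, complex II genes 9.78, complex III genes 6.34 and complex I genes 5.12, with a median of 5.56 over all 78. Just inside the limit of 1 RPKM lay Cox6a2 (1.19), Atp5g2 (1.23) and Ndufb7 (1.28). Just outside lay Cox6b2 and Cox7a1 (0.33 each), followed by Ndufa4l2 (0.17), Cox7b2 (0.13), Cox8b and Cox4i2 (0.11 each) and Cox8c (0.00029), which are forms known from testis, muscle, lung or other tissues. Of the 78 genes, 78 reached 1 RPKM in every RiboTag LPS library, against 73 in every RiboTag saline library, and 59 did so in every sorted LPS library, against 46 in every sorted saline library.

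Some subunits are made from several genes. Cox6a1 exceeded Cox6a2, the form of striated muscle, in all 17 groups: its group means lay between 9.20 RPKM in sorted saline and 55.2 RPKM in RiboTag LPS, while those of Cox6a2 lay between 0.326 RPKM in 3-month females and 4.16 RPKM in RiboTag LPS. The 3 genes for subunit c of the ATP synthase ring encode the same mature protein. Among them Atp5g3 was the most abundant in all 17 groups, at 2.26 to 15.2 RPKM, and Atp5g1 came next in every group but both sorted ones, where Atp5g2 was 2.12 RPKM after LPS and 1.06 RPKM after saline and Atp5g1 was 1.50 RPKM after LPS and 1.01 RPKM after saline. The spread of the sorted libraries was wide enough that this order is not separated from its error: Atp5g1 was 0.836, 1.43 and 2.23 RPKM in sorted LPS and 0.221, 1.49 and 1.31 RPKM in sorted saline. The group means of Sdha ran from 12.8 RPKM in sorted LPS to 24.8 RPKM in 12-month females, and those of Cox5a, a complex IV subunit, from 3.31 RPKM in sorted saline to 32.0 RPKM in sorted LPS.

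**Figure D1:**
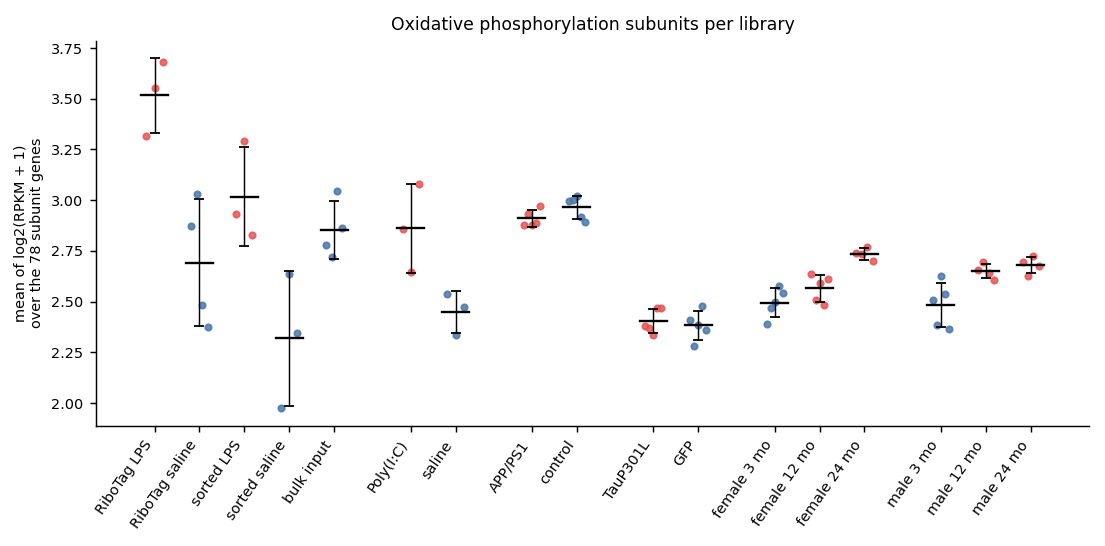
Mean log2(RPKM + 1) over the 78 genes in each library (vertical axis), by group (horizontal axis); each point is a library, red for treated, transgenic or older groups and blue for their controls, with bars for the group mean ± SD. RiboTag LPS libraries lie at 3.32 to 3.68, above RiboTag saline at 2.38 to 3.03, and 24-month females at 2.70 to 2.77, above 3-month females at 2.39 to 2.58.

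After systemic LPS, transcripts of nearly all 78 genes stood higher in the RiboTag pulldown, although few passed the test. In 67 genes every RiboTag LPS library was above every RiboTag saline library, which held for 23.5% of all genes tested. The median log2 difference of the 78 was 0.83, beside 0.12 over all genes tested, and 76 of the 78 were above 0. The test was limma's moderated test on log2(RPKM + 1), with p adjusted over all genes by the Benjamini-Hochberg method and called at 0.05. It called 3 of the 78 higher, beside 1.33% of all genes, and 0 lower, beside 0.0288%. At an unadjusted p under 0.05, 28 of the 78 were higher, and 10.2% of all genes had such a p in either direction. Log2 differences below are given ± SE on the log2(RPKM + 1) scale, which understates the change of genes at low levels.

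The 3 called genes belong to complexes III and V. Uqcrq, a small membrane subunit of complex III, had 3.58, 4.98 and 6.93 RPKM in RiboTag LPS and 1.84, 1.74, 0.728 and 0.803 RPKM in RiboTag saline, and rose by a log2 difference of 1.44 ± 0.29 (limma, adjusted p = 0.0381). Atp5d, the delta subunit in the rotating stalk of ATP synthase, had 12.8, 20.9 and 22.1 RPKM in RiboTag LPS and 8.61, 6.30, 4.77 and 5.58 RPKM in RiboTag saline, a log2 difference of 1.41 ± 0.30 (limma, adjusted p = 0.0439). Atp5g2 had 1.60, 2.30 and 2.46 RPKM in RiboTag LPS and 0.681, 0.638, 0.428 and 0.723 RPKM in RiboTag saline, a log2 difference of 0.94 ± 0.20 (limma, adjusted p = 0.0444). Atp5g2 averaged 2.12 RPKM over the 6 LPS libraries and 0.808 RPKM over the 7 saline libraries of pulldown and sorted cells, so it reached the tested mean of 1 RPKM only through the LPS libraries, and its call is given as a description. In all 3, the groups did not overlap, and the first LPS library was the lowest of its group.

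The largest differences were in genes that missed the threshold. Uqcr11, another small subunit of complex III, had 10.1, 15.1 and 16.7 RPKM in RiboTag LPS and 4.62, 3.88, 2.60 and 1.86 RPKM in RiboTag saline, a log2 difference of 1.84 ± 0.65 (limma, adjusted p = 0.267). Cox6a2 had 3.22, 4.56 and 4.69 RPKM in RiboTag LPS and 0.598, 0.630, 0.531 and 0.306 RPKM in RiboTag saline, a log2 difference of 1.76 ± 0.56 (limma, adjusted p = 0.191). It too reached the tested mean only through the LPS libraries, at 3.79 RPKM over the 6 and 0.722 RPKM over the 7 saline ones, and its difference is a description. Atp5e, the epsilon subunit of the rotating stalk, had 8.10, 10.9 and 13.0 RPKM in RiboTag LPS and 3.30, 4.94, 2.56 and 2.06 RPKM in RiboTag saline, a log2 difference of 1.49 ± 0.38 (limma, adjusted p = 0.0856). The groups did not overlap in any of these 3 genes. At the other end, Ndufs1, the large iron-sulfur subunit of complex I, had 4.65, 4.38 and 3.73 RPKM in RiboTag LPS and 3.99, 4.47, 4.02 and 4.98 RPKM in RiboTag saline, overlapping groups. Ndufb2, an accessory subunit of complex I, had 2.38, 2.28 and 2.32 RPKM in RiboTag LPS and 2.17, 2.29, 2.05 and 2.28 RPKM in RiboTag saline. It overlapped too, and log2 differences were -0.03 ± 0.37 for Ndufs1 and 0.06 ± 0.22 for Ndufb2. The lowest log2 difference was that of Atp5s at -0.18 ± 0.50, with 3.60, 2.93 and 3.39 RPKM in RiboTag LPS and 4.25, 3.59, 4.36 and 3.36 RPKM in RiboTag saline. By complex, the median log2 difference was 1.09 for complex IV, 0.96 for complex V, 0.93 for complex II, 0.73 for complex I and 0.70 for complex III.

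These counts moved with the libraries in the fit. The test shared 1 estimate of spread, and the filter on low values, with the sorted libraries. A fit of RiboTag LPS and RiboTag saline alone called 44 of the 78, Cox6a2, Uqcr11 and Atp5e among them. The share of all genes called in that fit was not counted, so 44 stands without a background. Without any 1 of RiboTag LPS replicates 1, 3 and 4 or RiboTag saline replicates 1, 3 and 4 no gene was called, and without RiboTag saline replicate 2 there were 2. None was called after scaling each library by the median of its ratios, which moved the median of all genes to -0.13 and left that of the 78 at 0.52. Over the whole table the scaling called 27 genes higher and 1 lower, in place of 185 and 4. Microglial markers moved with the comparison, with a summed level of 2756 to 3569 RPKM in RiboTag LPS and 1017 to 3163 RPKM in RiboTag saline for 12 genes, none at 0. Of these, 1 was called higher, and their part in the result was not tested. In any bulk library of this kind, fewer cells of a type and less RNA per cell cannot be told apart.

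**Figure D2:**
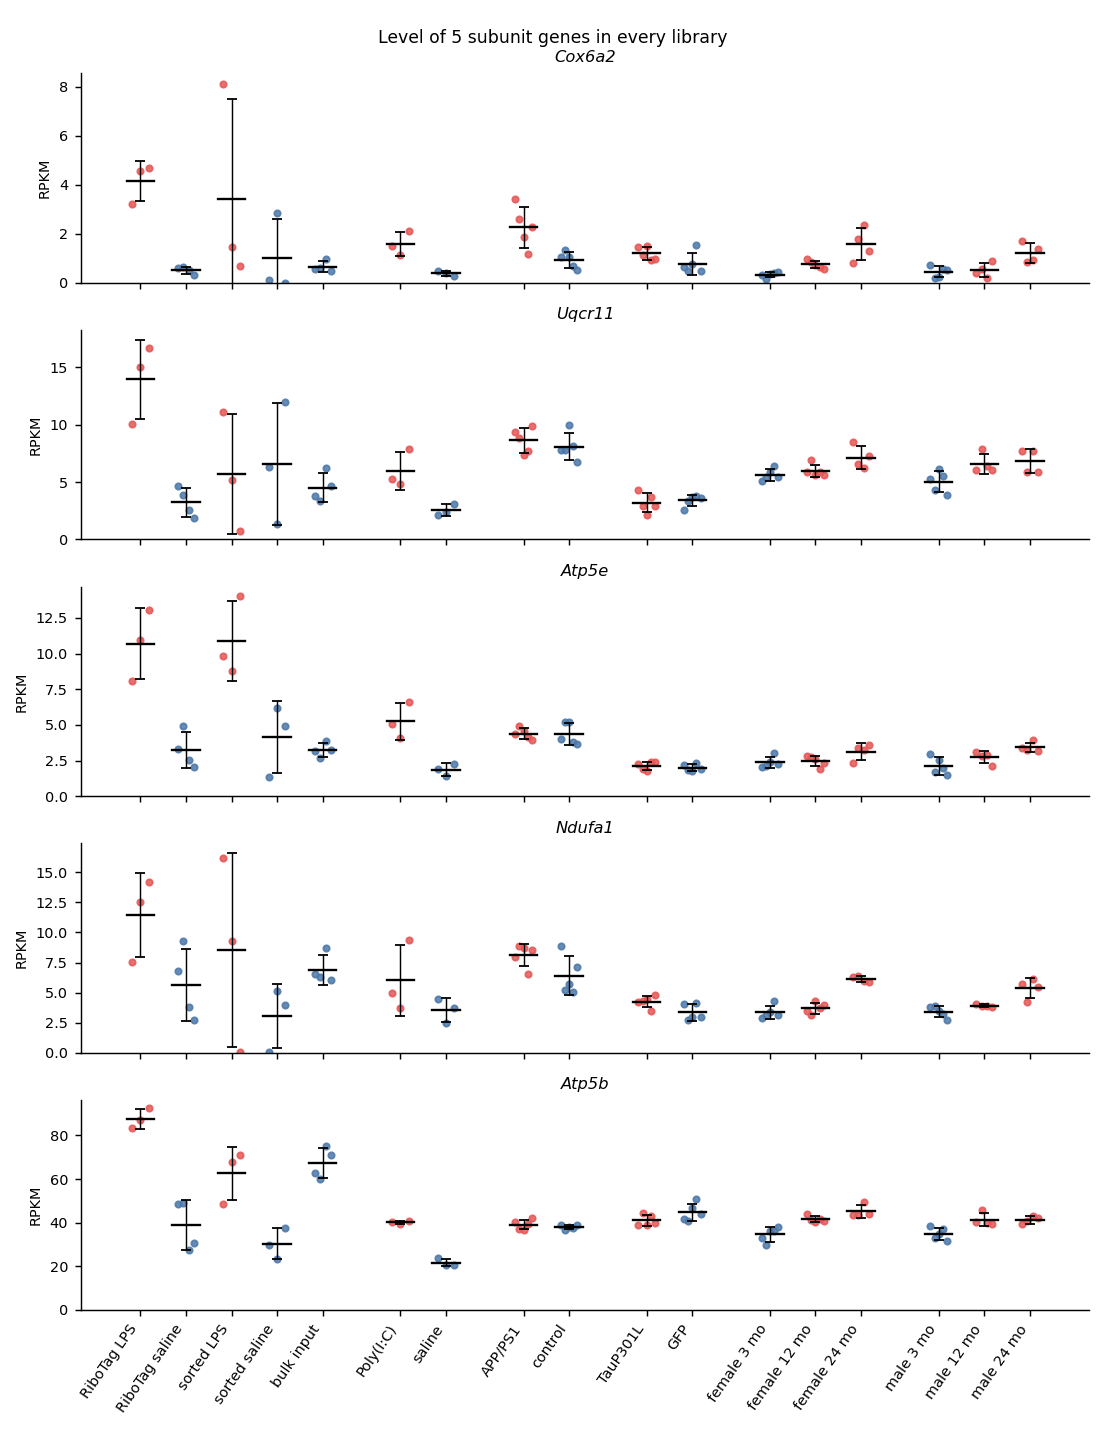
RPKM of Cox6a2, Uqcr11, Atp5e, Ndufa1 and Atp5b (1 panel each, vertical axis) in each library by group (horizontal axis), with bars for the group mean ± SD. The highest group mean of Cox6a2 is that of RiboTag LPS, at 4.16 RPKM, and Ndufa1 stands at 6.14 RPKM in 24-month females and 3.36 RPKM in 3-month females.

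In sorted cells the same challenge gave a wider range of log2 differences, and replicates spread more. Of the 78, 12 were called higher, beside 7.01% of all genes, and 0 lower, beside 1.81%. The median log2 difference was 0.75, beside 0.09 for all genes, and 19 genes had every sorted LPS library above every sorted saline library, which held for 13.1% of all genes. Called genes came from every complex. In complex I, Ndufb10, an accessory subunit of the membrane arm, had 3.42, 9.15 and 14.3 RPKM in sorted LPS and 1.37, 0.524 and 0.136 RPKM in sorted saline, a log2 difference of 2.46 ± 0.42 (limma, adjusted p = 0.00551). Ndufa6, an accessory subunit of the LYR family, had 28.2, 4.02 and 65.5 RPKM in sorted LPS and 1.09, 2.37 and 1.90 RPKM in sorted saline, a log2 difference of 2.97 ± 0.70 (limma, adjusted p = 0.0228). In complex II, Sdhb, the iron-sulfur subunit, had 15.1, 10.2 and 14.9 RPKM in sorted LPS and 6.51, 5.91 and 6.29 RPKM in sorted saline, a log2 difference of 0.97 ± 0.26 (limma, adjusted p = 0.0408). These genes were separate between groups in all libraries, and Ndufa6 was far lower in the second sorted LPS library than in the others.

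In complex III, Uqcrc1, a core subunit, had 7.16, 3.87 and 5.95 RPKM in sorted LPS and 0.154, 1.13 and 1.52 RPKM in sorted saline, a log2 difference of 1.83 ± 0.30 (limma, adjusted p = 0.00478). In complex IV, Cox5a, on the matrix side of the enzyme, had 13.4, 38.8 and 43.8 RPKM in sorted LPS and 0.0683, 5.91 and 3.96 RPKM in sorted saline, a log2 difference of 3.15 ± 0.63 (limma, adjusted p = 0.0117). In complex V, Atp5h, subunit d of the peripheral stalk, had 21.8, 13.8 and 21.4 RPKM in sorted LPS and 3.65, 6.96 and 9.95 RPKM in sorted saline, a log2 difference of 1.41 ± 0.31 (limma, adjusted p = 0.0187). Each was higher in all 3 LPS libraries than in any saline library. The lowest log2 differences were not called: Atp5sl at -1.51 ± 0.72, where 1 saline library alone stood at 19.5 RPKM among 19.5, 1.19 and 0.487 RPKM, and Uqcrh, the hinge protein of complex III, at -0.75 ± 0.36. Sdha was at -0.70 ± 0.26, with 17.8, 12.0 and 8.50 RPKM in sorted LPS and 22.0, 23.7 and 16.4 RPKM in sorted saline. The SE and calls used the estimate of spread shared with the pulldown libraries, whose replicates spread less. A fit of the sorted groups alone called 0 genes, and scaling by the median of ratios gave 5 higher and 1 lower in place of 12 and 0. Over the whole table the scaling called 542 genes higher and 498 lower, in place of 975 and 252. The neutrophil and monocyte markers given above differed between the sorted groups in the same direction, and their part in these values was not tested.

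The difference between the LPS effects in pulldown and in sorted cells was itself tested, and limma called none of the 78 (smallest adjusted p = 0.31). Of all genes, 0.101% were called higher and 0.158% lower. At an unadjusted p under 0.05, 5 of the 78 were higher and 5 lower, and 8.98% of all genes had such a p in either direction. The highest log2 difference of effects was that of Uqcr11 at 2.09 ± 0.95, and the 3 lowest were those of Ndufb10 at -1.63 ± 0.58, Cox5a at -1.74 ± 0.87 and Ndufa6 at -2.41 ± 0.95. Uqcr11 in particular had 11.1, 5.21 and 0.761 RPKM in sorted LPS and 6.36, 1.35 and 12.0 RPKM in sorted saline, overlapping groups with no common order.

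After Poly(I:C), genes of all 5 complexes were called higher in the pulldown. Of 76 genes tested, 14 were called higher, beside 6.27% of all genes, and 0 lower, beside 0.23%. The median log2 difference was 0.38, beside -0.02 over all genes, and in 36 genes all 3 Poly(I:C) libraries were above all 3 saline libraries, which held for 15.3% of all genes; in 1 gene all 3 were below, as in 6.86% of all genes. Complex V held 5 of the called genes, complexes I and III 3 each, complex IV 2 and complex II 1. Among them Uqcrq reached the tested mean only through the Poly(I:C) libraries, at 1.91 RPKM after Poly(I:C) and 0.938 RPKM after saline on average. Atp5e had 5.06, 4.07 and 6.60 RPKM after Poly(I:C) and 1.94, 1.39 and 2.25 RPKM after saline, the highest log2 difference at 1.12 ± 0.17 (limma, adjusted p = 0.00683). Atp5l, subunit g of the membrane part of ATP synthase, had 7.23, 5.91 and 7.83 RPKM after Poly(I:C) and 3.05, 3.20 and 3.58 RPKM after saline, a log2 difference of 0.90 ± 0.12 (limma, adjusted p = 0.00339). Neither gene overlapped between groups.

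In the electron transport chain, Ndufs8, a core iron-sulfur subunit of complex I, had 4.98, 4.51 and 6.38 RPKM after Poly(I:C) and 2.81, 3.09 and 2.96 RPKM after saline, a log2 difference of 0.66 ± 0.12 (limma, adjusted p = 0.0174). Sdhb had 3.69, 3.54 and 4.06 RPKM after Poly(I:C) and 2.43, 2.33 and 2.26 RPKM after saline, a log2 difference of 0.51 ± 0.09 (limma, adjusted p = 0.0127). Uqcr11 had 5.23, 4.84 and 7.87 RPKM after Poly(I:C) and 2.09, 2.42 and 3.13 RPKM after saline, a log2 difference of 0.96 ± 0.18 (limma, adjusted p = 0.017). All were separate between groups, and Sdhb had the narrowest spread. Cox7b, a small subunit of complex IV, had 16.7, 10.2 and 20.0 RPKM after Poly(I:C) and 7.68, 6.90 and 7.26 RPKM after saline, a log2 difference of 0.96 ± 0.22 (limma, adjusted p = 0.0395). Cox6a2 was under the limit of a mean of 1 RPKM and was not tested, at 1.49, 1.14 and 2.10 RPKM after Poly(I:C) and 0.481, 0.386 and 0.287 RPKM after saline, with no overlap. Ndufb2 was the gene with the lowest log2 difference, -0.18 ± 0.09 (limma, adjusted p = 0.421), at 1.72, 1.79 and 2.01 RPKM after Poly(I:C) and 2.26, 2.10 and 2.31 RPKM after saline. Counts of called genes moved with single libraries: 4, 4 and 4 without saline replicates 1, 2 and 3, 7 without Poly(I:C) replicate 1 and 26 without Poly(I:C) replicate 2. Most microglial markers moved the same way, with 9 of 12 called higher, while P2ry12 averaged 26.2 RPKM after Poly(I:C) and 33.7 RPKM after saline. The 12 summed to 877 to 1349 RPKM after Poly(I:C) and 436 to 475 RPKM after saline, none at 0, and their part in the result was not tested.

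Set against Poly(I:C), the LPS effect in the pulldown was higher by a median log2 difference of 0.42 over 77 genes tested, beside 0.13 over all genes. The limma test called none, beside 0.0864% of all genes higher and 0.108% lower. At an unadjusted p under 0.05, 13 of the 77 were higher, and 8.43% of all genes had such a p in either direction. Cox6a2 and Atp5d had wide gaps, with a difference of effects of 0.88 ± 0.21 for Cox6a2 (limma, adjusted p = 0.167) and 0.88 ± 0.30 for Atp5d (limma, adjusted p = 0.397). Cox6a2 averaged 0.516 RPKM in RiboTag saline and 0.385 RPKM in the Poly(I:C) controls. It reached the tested mean of 1 RPKM only through the treated libraries, and its difference of effects is a description. Atp5d had 6.83, 9.29 and 6.91 RPKM after Poly(I:C) and 4.74, 4.89 and 5.22 RPKM after saline, a narrower gap between groups than the one given above for LPS.

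**Figure D3:**
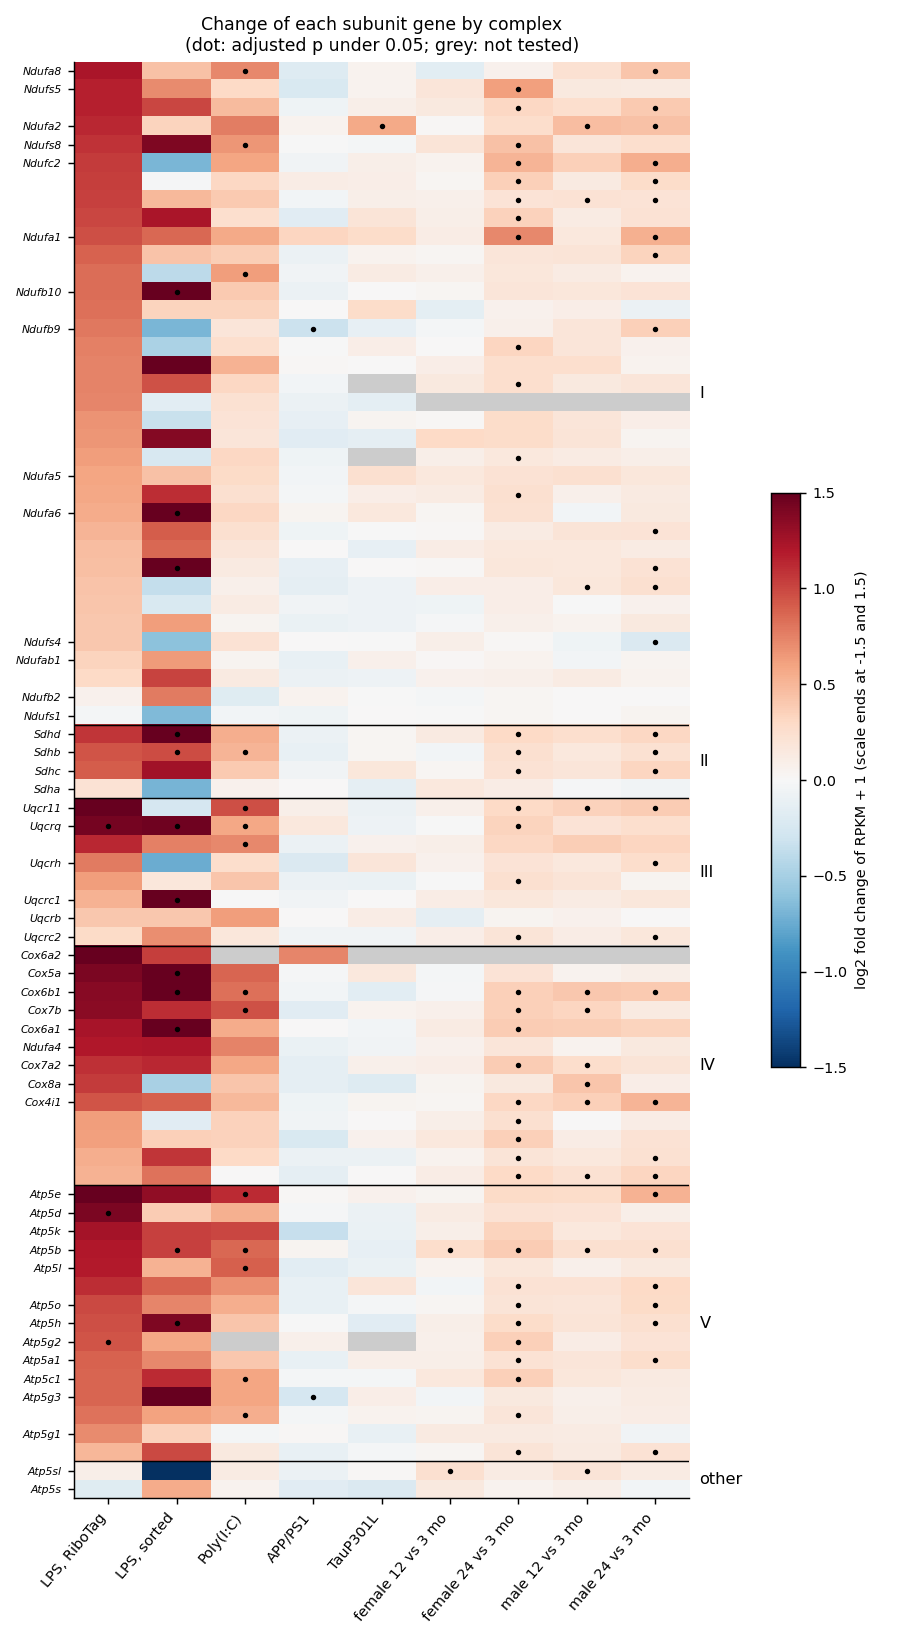
Log2 differences of the 78 genes (rows, by complex and then from the highest to the lowest difference after LPS in the pulldown, with names for a part of them) in 9 comparisons (columns), with dots for genes called by limma at an adjusted p under 0.05 and grey for genes not tested. In 76 of 78 genes LPS in the pulldown, and in 72 of 76 Poly(I:C), gave a value above 0, and dots are densest at 24 against 3 months, with 37 genes called in females and 29 called higher in males.

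With age, transcripts of these genes stood higher in both sexes, by small amounts. In females, limma called 37 of 76 genes higher at 24 than at 3 months, beside 16.7% of all genes, and 0 lower, beside 3.41%. All 76 had a log2 difference above 0, with a median of 0.22 beside 0.05 over all genes, and 34 had no overlap between ages, as did 16% of all genes. Complex IV had 9 of 12 genes called, complex V 9 of 15, complex II 3 of 4, complex III 4 of 8 and complex I 12 of 35. In males, 29 of 76 were higher at 24 than at 3 months, beside 17.2% of all genes, and 1 was lower, beside 6.21%, with a median of 0.19 beside 0.04. In males 15 had no overlap with 24 months higher and 0 with 24 months lower, against 12.7% and 4.14% of all genes. Scaling by the median of ratios gave 21 higher in females and 24 higher with 1 lower in males, with medians of 0.15 and 0.14. Over the whole table it called 1463 genes higher and 1441 lower in females, in place of 2369 and 484, and 1730 and 2185 in males, in place of 2439 and 882. A fit of the 24-month and 3-month males alone called 15 of the genes, in place of 30. The genes called higher in both sexes numbered 20, which is 54.1% of the female list and 69.0% of the male list. The overlap over all genes was not counted, so these shares stand without a background.

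Ndufa1, a small membrane subunit that complex I needs for its assembly, had the widest age difference in females and a wide one in males. It stood at 6.33, 6.40, 5.97 and 5.85 RPKM at 24 months and 2.87, 3.14, 3.38, 4.28 and 3.15 RPKM at 3 months in females, a log2 difference of 0.72 ± 0.09 (limma, adjusted p = 2.9e-06). In males it stood at 5.75, 4.23, 6.14 and 5.49 RPKM at 24 months and 3.85, 3.89, 3.46, 3.20 and 2.74 RPKM at 3 months, a log2 difference of 0.53 ± 0.09 (limma, adjusted p = 0.00011). The ages did not overlap in either sex. Ndufs5, an accessory subunit facing the intermembrane space, had 3.90, 3.67, 3.30 and 3.03 RPKM at 24 months and 2.14, 1.63, 1.88, 1.90 and 2.02 RPKM at 3 months in females, a log2 difference of 0.62 ± 0.09 (limma, adjusted p = 2.16e-05). In males Ndufs5 had 2.88, 3.00, 3.08 and 2.01 RPKM at 24 months and 2.29, 2.24, 2.76, 2.52 and 2.14 RPKM at 3 months, overlapping ages, a log2 difference of 0.13 ± 0.09 that was not called (limma, adjusted p = 0.305). Its female effect minus its male effect, 0.48 ± 0.13, was the widest of the genes tested and was not called either (limma, adjusted p = 0.122). Ndufc2, an accessory subunit of the membrane arm, had 11.9, 9.57, 12.7 and 12.2 RPKM at 24 months and 7.73, 5.67, 10.2, 7.77 and 7.01 RPKM at 3 months in males, with 1 old library within the young range, and a log2 difference of 0.55 ± 0.13 in males (limma, adjusted p = 0.0022) and 0.51 ± 0.13 in females (limma, adjusted p = 0.00503).

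In complex II, Sdhd, a membrane anchor, had 12.2, 10.3, 11.0 and 11.0 RPKM at 24 months and 8.21, 7.84, 9.05, 10.4 and 8.99 RPKM at 3 months in females, a log2 difference of 0.30 ± 0.09 (limma, adjusted p = 0.0195), with 1 young library inside the old range. Sdhc, the other anchor, had 3.67, 3.19, 4.01 and 3.69 RPKM at 24 months and 2.99, 2.28, 2.77, 2.99 and 2.49 RPKM at 3 months in males, a log2 difference of 0.33 ± 0.07 (limma, adjusted p = 0.00124) with no overlap. In complex III, Uqcrc2, a core subunit, had 7.58, 6.92, 7.95 and 7.18 RPKM at 24 months and 5.96, 5.88, 6.66, 6.59 and 6.81 RPKM at 3 months in females, a log2 difference of 0.19 ± 0.05 (limma, adjusted p = 0.0147). The ages did not overlap for Sdhc or Uqcrc2, although their differences were small. Uqcr11 had 7.71, 5.91, 7.75 and 5.89 RPKM at 24 months and 5.27, 4.34, 6.13, 5.57 and 3.84 RPKM at 3 months in males, overlapping groups, and a log2 difference of 0.38 ± 0.10 (limma, adjusted p = 0.00993).

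In complex IV, Cox6b1, a subunit on the cytochrome c side, had 13.9, 14.8, 15.1 and 13.7 RPKM at 24 months and 10.3, 10.8, 10.5, 12.3 and 10.9 RPKM at 3 months in females, a log2 difference of 0.36 ± 0.08 (limma, adjusted p = 0.00131). In males it had 12.5, 12.3, 13.4 and 13.5 RPKM at 24 months and 11.0, 8.23, 10.8, 9.64 and 8.66 RPKM at 3 months, a log2 difference of 0.39 ± 0.08 (limma, adjusted p = 0.000451). Cox4i1, the widely expressed form of subunit 4, had 14.6, 13.0, 16.2 and 13.6 RPKM at 24 months and 9.49, 9.21, 12.5, 10.2 and 8.10 RPKM at 3 months in males, a log2 difference of 0.51 ± 0.09 (limma, adjusted p = 0.000207). Ages were separate in these comparisons of Cox6b1 and Cox4i1. Cox6a2 was under the level tested, and its values, given without a test, stood at 0.326 ± 0.110, 0.752 ± 0.154 and 1.57 ± 0.654 RPKM at 3, 12 and 24 months in females (SD, n = 5, 5 and 4) and 0.455 ± 0.217, 0.504 ± 0.285 and 1.22 ± 0.398 RPKM in males (SD, n = 5, 4 and 4).

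In complex V, Atp5b averaged 34.6 ± 3.41, 41.5 ± 1.34 and 45.1 ± 2.77 RPKM at 3, 12 and 24 months in females and 34.9 ± 2.84, 41.3 ± 3.05 and 41.2 ± 1.62 RPKM in males (SD, n as above). It was called higher at both later ages in both sexes, with log2 differences from 3 months of 0.26 ± 0.06 at 12 months in females (limma, adjusted p = 0.0218), 0.38 ± 0.07 at 24 months in females (limma, adjusted p = 0.000161), 0.24 ± 0.07 at 12 months in males (limma, adjusted p = 0.0183) and 0.24 ± 0.07 at 24 months in males (limma, adjusted p = 0.0096). In males the mean at 24 months was no higher than that at 12 months, and in females it was higher; 24 months was not tested against 12 months. Atp5c1, the gamma subunit that turns in the stalk, had 15.5, 15.4, 15.9 and 14.4 RPKM at 24 months and 11.6, 10.4, 12.3, 12.5 and 12.1 RPKM at 3 months in females, a log2 difference of 0.35 ± 0.06 (limma, adjusted p = 8.38e-05). Atp5o, the subunit that joins the head to the peripheral stalk, had 6.17, 6.02, 6.24 and 6.53 RPKM at 24 months and 5.32, 3.93, 5.75, 5.42 and 4.34 RPKM at 3 months in males, a log2 difference of 0.29 ± 0.07 (limma, adjusted p = 0.00209). Atp5e had 3.35, 3.22, 3.91 and 3.20 RPKM at 24 months and 2.95, 1.70, 2.56, 1.97 and 1.47 RPKM at 3 months in males, a log2 difference of 0.52 ± 0.12 (limma, adjusted p = 0.00253). None of the 3 overlapped between ages.

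Ndufs4, an accessory subunit at the NADH-oxidising end of complex I, was the exception. It had 12.8, 10.8, 10.6 and 9.83 RPKM at 24 months and 11.8, 13.0, 14.7, 12.9 and 12.4 RPKM at 3 months in males, where it was called lower, at a log2 difference of -0.22 ± 0.06 (limma, adjusted p = 0.00998), with 1 old library inside the young range. In females it had 12.4, 13.8, 13.2 and 12.5 RPKM at 24 months and 13.3, 11.8, 12.2, 13.0 and 13.7 RPKM at 3 months, a log2 difference of 0.02 ± 0.06. The difference between the sexes was not called (0.24 ± 0.09, female effect minus male effect; limma, adjusted p = 0.24). Nor was it for Ndufa1, at 0.19 ± 0.13 (limma, adjusted p = 0.575), or for any of the 76 genes (limma, smallest adjusted p = 0.12). Of all genes, 0.0775% were called higher in this difference and 0.0141% lower. At an unadjusted p under 0.05, 6 of the 76 were higher and 2 lower, and 12.4% of all genes had such a p in either direction.

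**Figure D4:**
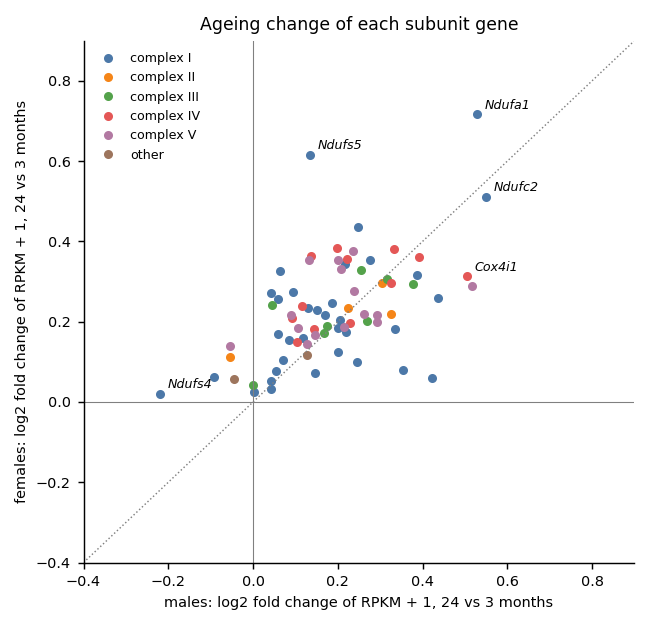
Log2 difference of 24 against 3 months in females (vertical axis) against the same in males (horizontal axis), 1 point per gene, coloured by complex. All 76 points are above 0 in females and 71 in males, and Ndufs4 lies farthest to the left.

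At 12 months the sexes gave different counts without a tested difference between them. In females 2 of 76 genes were higher at 12 than at 3 months, beside 2.56% of all genes, and none lower, beside 0.387%. They were Atp5b and Atp5sl, and Atp5sl had 2.86, 2.77, 2.50, 2.92 and 2.47 RPKM at 12 months and 1.99, 2.17, 2.34, 2.04 and 2.15 RPKM at 3 months (log2 difference 0.24 ± 0.06; limma, adjusted p = 0.0339). In males 12 were higher, beside 12.4% of all genes, a share near the background, and none lower, beside 1.44%. Ages were separate in 12 genes with 12 months higher and 0 with 12 months lower, beside 9.42% and 1.53% of all genes. Complex IV held 6 of the called genes. Scaling by the median of ratios gave 1 in females and 5 in males, and over all genes tested it called 142 higher and 172 lower in females, in place of 363 and 55, and 635 higher and 653 lower in males, in place of 1765 and 204. Cox6b1 had 14.4, 13.1, 12.5 and 12.4 RPKM at 12 months and 11.0, 8.23, 10.8, 9.64 and 8.66 RPKM at 3 months in males, a log2 difference of 0.41 ± 0.08 (limma, adjusted p = 0.00138). Cox8a had 47.9, 53.9, 48.0 and 51.6 RPKM at 12 months and 45.9, 30.1, 38.0, 40.4 and 34.5 RPKM at 3 months, a log2 difference of 0.42 ± 0.11 (limma, adjusted p = 0.0142). Ndufa2, an accessory subunit of complex I, had 4.77, 5.51, 5.65 and 5.52 RPKM at 12 months and 3.32, 3.58, 4.36, 4.19 and 2.79 RPKM at 3 months, a log2 difference of 0.46 ± 0.10 (limma, adjusted p = 0.00427). All 3 were separate between ages. Uqcr11 was the called gene of complex III, at a log2 difference of 0.34 ± 0.10 (limma, adjusted p = 0.0326). The male count at 12 months moved with single libraries, to 19, 4, 27 and 6 without 3-month male replicates 1, 2, 3 and 5 and to 4 and 6 without 12-month male replicates 2 and 3. The female count at 12 months was 0 without 3-month female replicate 2, 1 and 1 without replicates 1 and 4, 0 without 12-month female replicate 1, 1 without replicate 2 and 5 without replicate 4. That at 24 months in females was 24 without 3-month female replicate 1 and 24 without 24-month female replicate 3.

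Between females and males, limma called none of the 76 genes at 3, 12 or 24 months. Over all genes tested, 0.218% were called higher in females and 0.0704% lower at 3 months. These shares were 0.479% and 0.0986% at 12 months, and 0.634% and 0.183% at 24 months. At an unadjusted p under 0.05, 5 of the 76 were higher and 1 lower in females at 3 months. Such genes numbered 2 higher and 14 lower at 12 months, and 8 higher and 1 lower at 24 months. Over all genes tested, 11.4%, 10.1% and 13.9% had such a p in either direction at 3, 12 and 24 months. Other transcripts moved with age in the same libraries. The 12 microglial markers, none at 0, summed to 1396 to 1554 RPKM at 24 months and 748 to 936 RPKM at 3 months in females, with 6 called higher, and to 1309 to 1562 RPKM at 24 months and 718 to 914 RPKM at 3 months in males, with 11 called higher. Of 8 oligodendrocyte markers, 7 were called higher in females, where the 8 summed to 173 to 199 RPKM at 24 months and 120.2 to 142 RPKM at 3 months. Of 12 neuronal markers, 6 were called lower in males, and nearly all 12 had a lower mean at 24 months there. The part of these in the age differences of the 76 genes was not tested.

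Amyloid and tau models gave few calls among these genes, and medians near 0. In APP/PS1 mice limma called 2 of 78 lower, beside 0.79% of all genes, and 0 higher, beside 0.52%, with a median log2 difference of -0.06 beside -0.03 over all genes. At an unadjusted p under 0.05, 2 were higher and 13 lower, and 17.6% of all genes had such a p in either direction. In 2 genes every APP/PS1 library was lower than any control, beside 4.15% of all genes. Ndufb9, an accessory subunit of complex I and the most abundant of that complex, had 27.1, 26.8, 24.9, 26.6 and 23.8 RPKM in APP/PS1 and 31.9, 34.9, 36.1, 33.2 and 27.8 RPKM in controls, a log2 difference of -0.33 ± 0.07 (limma, adjusted p = 0.0399). Atp5g3 had 7.01, 8.08, 7.36, 8.06 and 7.66 RPKM in APP/PS1 and 9.41, 9.79, 10.1, 8.46 and 8.64 RPKM in controls, a log2 difference of -0.25 ± 0.05 (limma, adjusted p = 0.0496). Neither overlapped between groups. Cox6a2 went the other way and missed the threshold, with 3.42, 2.59, 1.86, 1.18 and 2.25 RPKM in APP/PS1 and 1.06, 1.32, 1.04, 0.700 and 0.518 RPKM in controls, a log2 difference of 0.73 ± 0.17 (limma, adjusted p = 0.0624), 4 of 5 APP/PS1 libraries lying above every control. Its mean was 2.26 RPKM in APP/PS1 and 0.929 RPKM in controls, so it was tested only through the APP/PS1 libraries. Scaling by the median of ratios called 97 genes higher and 44 lower over the whole table, in place of 75 and 114, and none of the 78. Atp5k, subunit e of ATP synthase, had the lowest log2 difference at -0.35 ± 0.12 (limma, adjusted p = 0.145). No gene was called without any 1 of the other 8 libraries; without control replicate 7 there were 6, all lower, and without APP/PS1 replicate 4 there were 3, 1 higher and 2 lower.

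With TauP301L, 1 of 74 genes tested was called higher, beside 0.7% of all genes, and none lower, beside 0.552%. Ndufa2 had 5.62, 5.33, 6.43, 5.81 and 6.37 RPKM in TauP301L mice and 4.58, 3.07, 3.12, 4.71 and 3.16 RPKM in GFP controls, a log2 difference of 0.56 ± 0.11 (limma, adjusted p = 0.0299). Every TauP301L library was above every GFP library, as in 3 of the 74 genes and 1.97% of all genes, and among the GFP libraries replicates 1 and 5 stood above the others. The call was absent without any 1 of GFP replicates 2, 3 and 8 or TauP301L replicates 1, 2, 3 and 5. The median log2 difference of the 74 was 0.01, beside -0.01 over all genes, and 5 were higher and 3 lower at an unadjusted p under 0.05. Of all genes, 16.7% had such a p in either direction. Neuronal markers summed to 268 to 309 RPKM in TauP301L mice and 331 to 363 RPKM in GFP controls, with 4 of 12 called lower, and their part in the value of Ndufa2 was not tested. The APP/PS1 effect minus the TauP301L effect was not called for any of 77 genes, and was -0.51 ± 0.14 for Ndufa2 (limma, adjusted p = 0.094). Of all genes, 0.34% were called higher and 0.507% lower. At an unadjusted p under 0.05, 0 of the 77 were higher and 14 lower, and 15.2% of all genes had such a p in either direction.

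Against the unselected forebrain, more of these genes were called lower than higher in the pulldown with all libraries, while genes as a whole were more often called higher. Of 75 genes tested, 15 were lower in RiboTag saline than in input, beside 10.5% of all genes, and 6 higher, beside 56.8%. The median log2 difference was -0.13, beside 0.41 over all genes. In 9 genes every pulldown library was below every input library and in 5 above, against 9.95% and 51.5% of all genes. Scaling by the median of ratios moved the median of all genes to 0.02 and that of the 75 genes to -0.61, and then 61 were lower and 0 higher. Over the whole table it called 3493 genes higher and 3471 lower, in place of 7256 and 1346. Complex IV had the lowest median, -0.55, with 5 of 12 lower; complex III stood at -0.34, complex V at -0.16, complex I at -0.11 and complex II at 0.07.

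Abundant subunits were among the lower ones. Ndufa4 had 21.6, 29.2, 15.5 and 10.5 RPKM in RiboTag saline and 29.7, 36.5, 45.3 and 38.8 RPKM in input, the lowest log2 difference at -1.01 ± 0.28 (limma, adjusted p = 0.00954). Atp5b had 48.4, 49.2, 27.4 and 30.4 RPKM in RiboTag saline and 63.0, 60.0, 75.3 and 70.9 RPKM in input, a log2 difference of -0.82 ± 0.21 (limma, adjusted p = 0.00698). Cox7a2, the widely expressed form of subunit 7A, had 8.21, 11.2, 6.22 and 4.38 RPKM in RiboTag saline and 12.3, 11.9, 15.0 and 13.4 RPKM in input, a log2 difference of -0.80 ± 0.23 (limma, adjusted p = 0.0113). Every pulldown library was below every input library in these 3. Higher in the pulldown were Ndufab1, the mitochondrial acyl carrier protein that is also a complex I subunit, with 1.85, 2.00, 1.75 and 2.01 RPKM in RiboTag saline and 1.18, 1.21, 1.36 and 1.16 RPKM in input (log2 difference 0.38 ± 0.07; limma, adjusted p = 0.0016), and Uqcrb, the ubiquinone-binding subunit of complex III, with 8.08, 8.01, 6.94 and 6.37 RPKM in RiboTag saline and 5.58, 5.27, 5.39 and 5.65 RPKM in input (log2 difference 0.36 ± 0.10; limma, adjusted p = 0.00929). Uqcrb turned to a log2 difference of -0.12 under the scaling, so its direction depends on it. Atp5sl, at 1.76, 1.77, 1.54 and 1.71 RPKM in RiboTag saline and 1.12, 0.846, 1.24 and 1.00 RPKM in input, had a log2 difference of 0.40 ± 0.09 (limma, adjusted p = 0.00264). Without input replicates 3 and 4 in turn, 12 and 11 genes were called in place of 21. Without RiboTag saline replicate 3 the calls were 7 higher and 7 lower, and without replicate 4 they were 8 higher and 9 lower, so the excess of lower calls rests on these libraries.

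Against sorted cells, the pulldown was higher in 12 of 78 genes, beside 27.8% of all genes, and lower in 1, beside 12.2%, with a median log2 difference of 0.34 beside 0.25. Scaling by the median of ratios moved the median of all genes to 0.07 and gave 5 higher and 3 lower. Over the whole table it called 3473 genes higher and 2312 lower, in place of 3861 and 1694. Groups were separate in 13 genes with the pulldown higher and 5 with it lower, against 32.3% and 15.2% of all genes. The SE and calls here rest on 1 estimate of spread pooled over pulldown and sorted libraries, although sorted replicates spread more. Ndufb10 had 4.97, 7.56, 4.87 and 4.06 RPKM in RiboTag saline and 1.37, 0.524 and 0.136 RPKM in sorted saline, a log2 difference of 1.96 ± 0.39 (limma, adjusted p = 0.00156). Ndufa5, an accessory subunit of the matrix arm of complex I, had 3.25, 5.29, 2.66 and 2.32 RPKM in RiboTag saline and 0.0114, 0.544 and 0.0344 RPKM in sorted saline, a log2 difference of 1.85 ± 0.33 (limma, adjusted p = 0.000607). Ndufa5 was under 1 RPKM in every sorted saline library and Ndufb10 in all but the first. Neither overlapped with the pulldown. Ndufa5 averaged 0.196 RPKM in sorted saline and 0.707 RPKM in sorted LPS. It reached the tested mean of 1 RPKM only through the pulldown libraries, and its call is given as a description. Ndufb2, another gene called higher here, averaged 0.486 RPKM in sorted saline and 1.48 RPKM in sorted LPS. It lay under 1 RPKM over both groups together, and its call is a description too.

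In the other complexes, Cox6a1 had 28.7, 29.8, 19.3 and 14.9 RPKM in RiboTag saline and 8.26, 15.4 and 3.99 RPKM in sorted saline, overlapping in 1 library, with a log2 difference of 1.35 ± 0.42 (limma, adjusted p = 0.0224). Uqcrc1 had 2.59, 2.59, 1.61 and 2.55 RPKM in RiboTag saline and 0.154, 1.13 and 1.52 RPKM in sorted saline, a log2 difference of 0.85 ± 0.28 (limma, adjusted p = 0.0307). Atp5g1 had 3.05, 2.91, 2.57 and 1.69 RPKM in RiboTag saline and 0.221, 1.49 and 1.31 RPKM in sorted saline, a log2 difference of 0.87 ± 0.29 (limma, adjusted p = 0.032). Uqcrc1 and Atp5g1 were just separate, since the lowest pulldown library lay close to the highest sorted one. Sdhb was the gene called lower, with 4.11, 4.50, 2.73 and 2.36 RPKM in RiboTag saline and 6.51, 5.91 and 6.29 RPKM in sorted saline, a log2 difference of -0.74 ± 0.24 (limma, adjusted p = 0.0301), and no overlap. Ndufa8, an accessory subunit of complex I, was lower still at -1.52 ± 0.66 without being called (limma, adjusted p = 0.0886), with 5.24, 7.33, 3.60 and 3.44 RPKM in RiboTag saline and 10.1, 17.1 and 20.7 RPKM in sorted saline. The count was 5 without sorted saline replicate 1 and 7, 6, 8 and 8 without RiboTag saline replicates 1, 2, 3 and 4. Markers of neurons (11 of 11 tested higher in the pulldown) and of neutrophils and monocytes (12 of 12 lower) moved with this comparison, and their part in it was not tested.

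**Figure D5:**
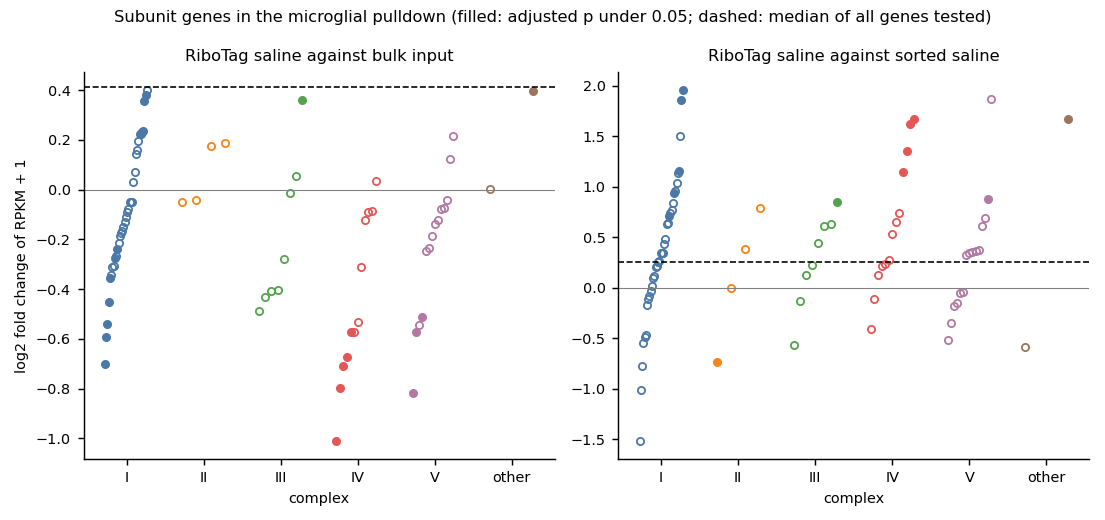
Log2 difference of RiboTag saline against bulk input and against sorted saline (1 panel each, vertical axis), 1 point per gene, by complex (horizontal axis); filled points were called by limma at an adjusted p under 0.05, and the dashed line is the median of all genes tested. Against input all 75 genes tested lie below the line at 0.41, and against sorted cells the genes spread widely on both sides of the line at 0.25.

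Over 9 comparisons of a treatment, model or age with its control, Atp5b was called higher in 6, Cox6b1 in 5 and Sdhb, Uqcr11 and Uqcrq in 4 each; some of these comparisons share their control libraries and are not independent. Atp5b after LPS in the pulldown had 83.3, 87.3 and 92.6 RPKM, against 48.4, 49.2, 27.4 and 30.4 RPKM in RiboTag saline, with no overlap and no call. Atp5b after Poly(I:C) had 40.5, 39.5 and 40.6 RPKM, against 23.7, 20.6 and 20.6 RPKM after saline (log2 difference 0.87 ± 0.12; limma, adjusted p = 0.00385), with no overlap. Cox6b1 had 13.1, 13.9 and 20.4 RPKM after Poly(I:C) and 10.1, 6.98 and 8.06 RPKM after saline (log2 difference 0.83 ± 0.19; limma, adjusted p = 0.0451). In sorted cells Cox6b1 had 9.94, 24.0 and 35.1 RPKM after LPS and 0.373, 4.06 and 7.79 RPKM after saline (log2 difference 2.45 ± 0.63; limma, adjusted p = 0.0336). Cox6b1 carries an ETS and a pair of CCAAT matches in the window shown above, and Atp5b carries CCAAT matches alone. The genes of LPS-treated sorted cells and of Poly(I:C) that were both called were Atp5b, Cox6b1, Sdhb and Uqcrq, 33.3% of the 12 from sorted cells and 28.6% of the 14 from Poly(I:C). This overlap too stands without a background, since that over all genes was not counted.

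Other mitochondrial and metabolic transcripts gave a mixed picture beside the subunits. Over all genes tested, 1.33% were called higher by LPS in the pulldown and 6.27% by Poly(I:C), and at 24 months 16.7% in females and 17.2% in males; a list's count near these shares says nothing particular to the list. Mitochondrial ribosomal proteins, which translate the subunits encoded in mitochondrial DNA, had 0 of 73 called higher by LPS in the pulldown (median log2 difference 0.57) and 3 of 74 by Poly(I:C) (0.19). At 24 months they had 13 of 70 in females and 12 of 70 in males (0.12 and 0.10), close to the shares over all genes. Assembly factors of the complexes had 0 of 29 called by LPS in the pulldown (median 0.25, and -0.03 under scaling), 0 of 28 by Poly(I:C) and, at 24 months, 4 of 28 in females and 3 of 28 in males. Enzymes of the tricarboxylic acid cycle, which supply the electrons, had 0 of 17 called by LPS in the pulldown, 2 of 17 by Poly(I:C). With age 5 were called higher in 24-month females, and 3 higher with 1 lower in 24-month males. Glycolytic enzymes had 1 of 18 called higher by LPS in the pulldown (median 0.66), 3 of 17 by Poly(I:C) (0.07) and, at 24 months, 9 in females and 6 in males. Regulators of mitochondrial biogenesis, among them the genes for NRF1, GABP and TFAM, had 0 of 12 called higher by LPS in the pulldown, 0 of 11 by Poly(I:C), and 1 in females and 2 in males of 12 at 24 months. Carriers and cytochrome c had 0 of 12 called by LPS in the pulldown, 3 by Poly(I:C), 6 in 24-month females and 3 in 24-month males. Cytosolic ribosomal proteins had the highest medians of these lists, and 33 of 90 were called higher by LPS in the pulldown (median 1.43), 65 of 85 by Poly(I:C) (0.93). At 24 months 79 of 85 in females and 75 of 85 in males were called (0.45 and 0.40).

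Log2 differences varied with transcript length in some comparisons. Across the genes tested, the Spearman correlation of the log2 difference with transcript length in the table was -0.56 among 78 subunit genes for LPS in the pulldown (-0.15 over all genes), -0.53 among 76 for Poly(I:C) (-0.12), -0.41 in females and -0.33 in males for 24 against 3 months (-0.18 and -0.17), and 0.45 among 75 for the pulldown against input (0.08). In sorted cells after LPS it was -0.07 (-0.05) and in APP/PS1 it was 0.08 (-0.05). The called genes for LPS in the pulldown had 1831 bases for Uqcrq, 1928 for Atp5d and 1675 for Atp5g2. Genes are not independent replicates and share the same libraries, so these values describe the list. The part of transcript length in the differences was not tested.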

How the data were processed

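The data were 1 deposited table with an RPKM value for 43346 genes in 70 libraries, and the authors made these RPKM values from reads counted per gene; the submitters' processing notes name CASAVA, TopHat2, featureCounts and mm10, and give no versions. The libraries fall into 17 groups by their labels, and no value column was left unmapped. RPKM values turned back into whole reads in 100% of cases within 0.01 reads, and the implied denominators exceeded the reads assigned to genes. The length in the table is that of merged exons with untranslated parts (median ratio 1.0 to the GENCODE vM21 exon union), although its column is named a coding length.

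No count model was used. Comparisons used limma 3.58.1 in R 4.3.3 with a trended moderated test on log2(RPKM + 1), for genes whose mean in a fit's libraries reached 1 RPKM, with Benjamini-Hochberg adjustment over all genes tested and calls at an adjusted p under 0.05. The 4 LPS groups shared 1 fit, and so did the 6 ageing groups; every other comparison was fitted on its own groups, and effects of 2 studies were compared in a joint fit. The script was tested on simulated data. Alternatives were a pseudocount of 0.1 RPKM, no filter, a mean of at least 5 RPKM, scaling by the median of ratios, the replicate number as a block, a separate fit for each pair of groups, and leaving out each library. Tables and figures were made with Python 3.11.15, pandas 2.3.3 and matplotlib 3.10.9.

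The genes and all lists were chosen with earlier results of these data known. Values per library are given by rule for the called gene of each complex with the smallest p and for genes at either end of the log2 differences. The rule also names isoforms and a fixed list of other subunits. The recurrence of Atp5b and Cox6b1 was described after their values were seen. Same-numbered libraries did not deviate together in every pair of any comparison, so numbers were not used as pairs; whether pulldown and input libraries of equal number come from the same animal is not stated in the labels. Labels give animals per condition, and p-values measure the spread between these libraries.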

Additional observations from a re-analysis of the deposited data

Results flagged for a closer look

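Single libraries stood apart from their group in 5 of the 112 gene and group combinations with 4 or 5 libraries that were examined, each by a gap wide for the group's range (Dixon's test at 95%); chance gives about 1 in 20. Uqcrc1 was at 1.61 RPKM in RiboTag saline replicate 3, below the others at 2.55 to 2.59 RPKM. Cox6b1 was at 12.3 RPKM in 3-month female replicate 4, above the others at 10.3 to 10.9 RPKM. Atp5b was at 49.3 RPKM in 24-month female replicate 3, above the others near 43.7 RPKM, and at 45.9 RPKM in 12-month male replicate 2, above the others at 39.3 to 40.3 RPKM. Ndufa2 was at 4.77 RPKM in 12-month male replicate 1, below the others at 5.51 to 5.65 RPKM.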

How the results depend on the processing

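Counts of genes called that moved by more than 1.5 times are given here against the counts in the report, and the cause was not tested. With no filter, counts were 13 for RiboTag saline against input (from 21), 0 for LPS in the pulldown (from 3), 7 for LPS in sorted cells (from 12), 4 for Poly(I:C) (from 14), 0 for APP/PS1 (from 2), 0 for TauP301L (from 1), 1 for 12-month females (from 2) and 6 for 12-month males (from 12). At a mean of at least 5 RPKM, where fewer genes were tested, they were 10 against input, 5 against sorted cells (from 13), 9 for Poly(I:C), 0 for TauP301L, 3, all lower, for APP/PS1 against TauP301L effects (from 0), 1 for 12-month females, 21 for 24-month females (from 37), 18 for 24-month males (from 30) and 1 for the sexes at 12 months (from 0). Scaling by the median of ratios gave 61 against input, 8 against sorted cells, 0 for LPS in the pulldown, 6 for LPS in sorted cells, 0 for APP/PS1, 1 for 12-month females, 21 for 24-month females, 5 for 12-month males and 1 for the sexes at 12 months. A pseudocount of 0.1 RPKM gave 1 for LPS in the pulldown and 1 for APP/PS1. Fits of only the compared groups gave 44 for LPS in the pulldown, 0 for LPS in sorted cells, 0 for 12-month females, 2 for 12-month males and 15 for 24-month males. For these fits the share of all genes called was not counted. With the replicate number as a block, for libraries that the labels do not tie to the same animal, counts were 10 against input, 0 for LPS in the pulldown, 1 for APP/PS1, 0 for TauP301L, 0 for 12-month females and 4 for 12-month males; no comparison had a correlation of deviations over 0.1 in every pair. Leaving out 1 library gave 11 to 28 against input, 5 to 18 against sorted cells, 0 to 2 for LPS in the pulldown, 8 to 15 for LPS in sorted cells, 0 to 1 for the difference of these effects, 4 to 26 for Poly(I:C), 0 for LPS against Poly(I:C) effects, 0 to 6 for APP/PS1, 0 to 1 for TauP301L and for APP/PS1 against TauP301L effects, 0 to 5 and 24 to 39 for females at 12 and 24 months, 4 to 27 and 24 to 41 for males, 0 for the age effect between sexes and for the sexes at 3 months, and 0 to 1 for the sexes at 12 and 24 months. Of 1251 alternative values for 90 log2 differences, 1022 kept their direction and side of the threshold, 198 lost a call, 21 gained one and 10 turned round. Those that turned were small: under scaling, Uqcrb and Ndufs4 against input to -0.12 and -0.11, Ndufb2 for LPS in the pulldown to -0.19 and Ndufs4 in 24-month females to -0.055; with the block, Atp5s and Ndufs1 for LPS in the pulldown to 0.074 and 0.10; and with 1 library left out, Ndufs1 to 0.023 and 0.043 (range from -0.085) and Ndufs4 in 24-month females to -0.0056 and -0.0064 (range up to 0.043). Scaling called 15 higher and 32 lower genes over the whole table for LPS against Poly(I:C) effects (from 12 and 15) and 205 and 47 for APP/PS1 against TauP301L effects (from 47 and 70). Depth limits the low genes most, since 1 RPKM of a short transcript is few reads.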
